A study of Mus musculus with 62 samples.

Results

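The comparison described here set the livers of 6 female C57BL/6 mice given a mixture of polychlorinated biphenyls (PCBs) by mouth at 6 mg/kg against the livers of 6 female C57BL/6 mice given the same mixture at 1 mg/kg. These 12 libraries were chosen by the tissue and treatment in the sample labels, out of 62 in the series. Both groups received the mixture, named MARBLES in the series description, and no vehicle library entered the comparison. The question was which transcripts of the liver separate the higher dose from the lower dose. The series also holds 4 liver libraries of vehicle and 4 of 0.1 mg/kg, whose levels are given below as description only, and libraries of prefrontal cortex and striatum at the same doses. The age of the mice, the length of exposure and the hour of killing are not given in the sources used here, and each library is named by the animal number of its title.

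The liver takes up PCBs and meets them with nuclear receptors. The constitutive androstane receptor (CAR, gene Nr1i3) and the pregnane X receptor (PXR, gene Nr1i2) switch on cytochrome P450 genes of the Cyp2b, Cyp2c and Cyp3a families, conjugating enzymes and export pumps, and flat, dioxin-like congeners act on the aryl hydrocarbon receptor (AhR), whose classic hepatic target is Cyp1a2. The hepatocyte is also a secretory cell, which folds large amounts of plasma protein in the endoplasmic reticulum (ER) with chaperones such as Hspa5 (BiP).

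No gene reached an adjusted p of 0.05 between 6 and 1 mg/kg (0 of 12072 genes tested, 0%; edgeR quasi-likelihood test with Benjamini-Hochberg adjustment). At an unadjusted p under 0.05 stood 1223 genes, of which 794 were higher at 6 mg/kg (6.58% of all tested) and 429 were lower (3.55%). The unadjusted counts below describe the members of each list beside those background shares and are not calls. In the refits described below those shares moved, from 2.09% to 14.3% for higher and from 0.77% to 12.9% for lower genes. Counts in a refit therefore stand beside another background. The Wald test of DESeq2, run on the same genes, passed 27 genes (23 higher, 4 lower, and 1382 at an unadjusted p under 0.05). The smallest p belonged to Fyb2, Slc39a5 and, on the lower side, Cela1, which are in none of the pathway lists. The median log2 difference over all tested genes was -0.01, and 5940 genes lay above 0.

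**Figure D1:**
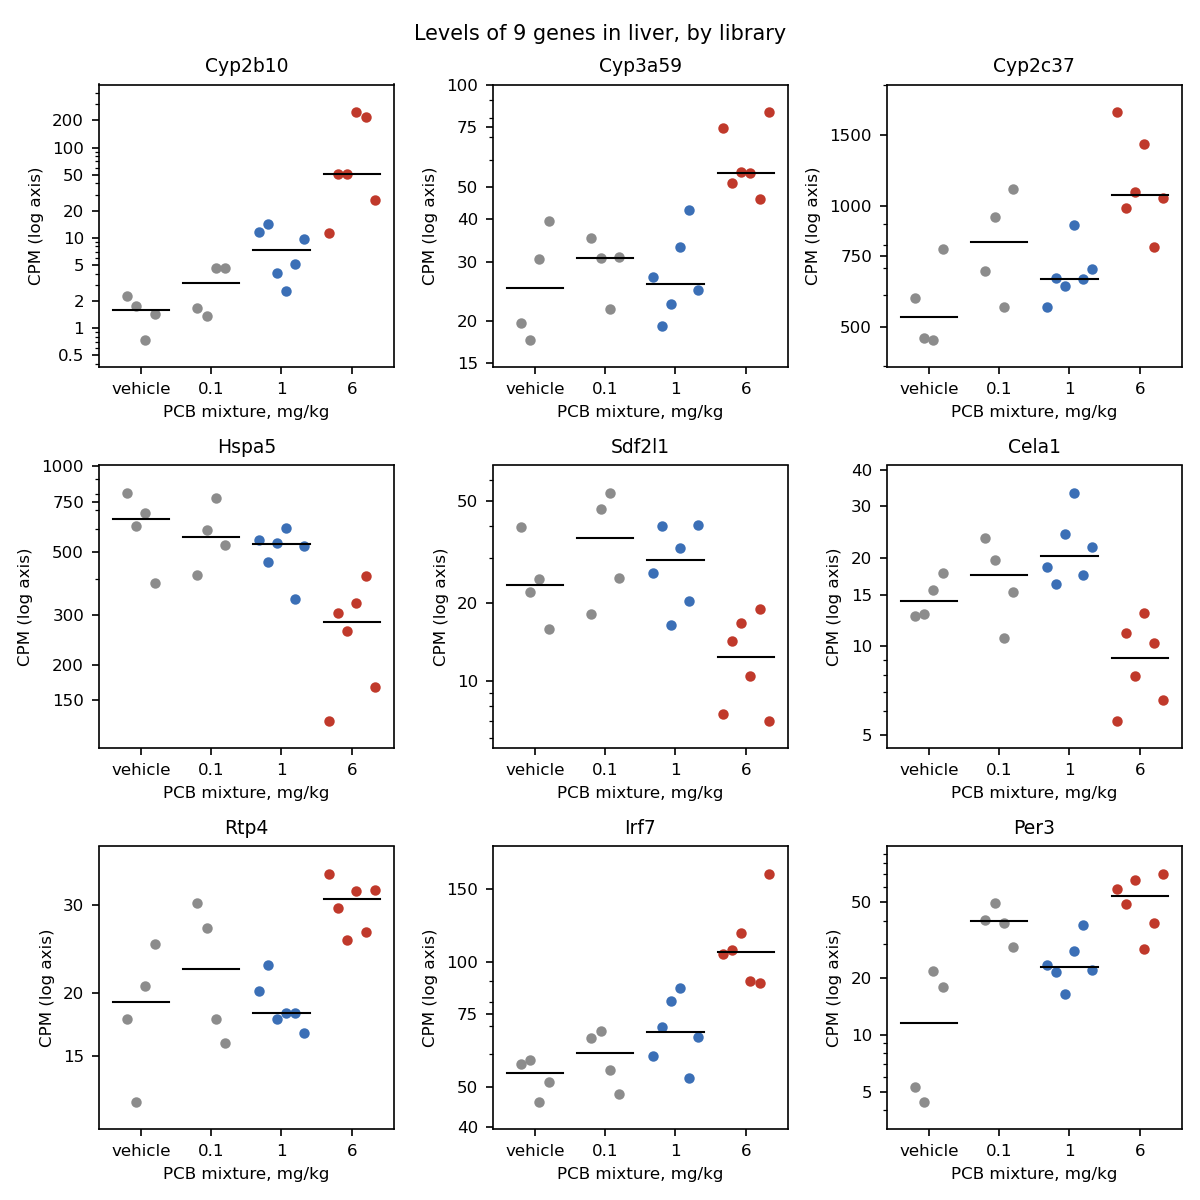
Levels of 9 genes in each of the 20 liver libraries, in CPM (a gene's counts relative to the library's total, scaled to a fixed total, log axis) with trimmed-mean (TMM) scaling, against the dose of the PCB mixture in mg/kg; points are libraries and bars are group medians, with 6 mg/kg in red, 1 mg/kg in blue and the groups outside the comparison in grey. Cyp3a59, Rtp4 and Irf7 of the 6 mg/kg libraries lay above all 1 mg/kg libraries and Cela1 lay below all of them, while Cyp2b10 spread from 11.2 to 249 CPM within the 6 mg/kg group.

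Among the targets of CAR and PXR, Cyp2b10, the textbook marker of CAR activation, had the largest difference. Its level at 6 mg/kg was 11.2 CPM in the lowest library, 50.7 at the median and 249 in the highest, against 2.54, 7.34 and 14.2 CPM at 1 mg/kg. Libraries 55 and 56 were the highest, at 249 and 215 CPM, and library 52 was the only 6 mg/kg library inside the range of the 1 mg/kg group. Its log2 difference of 3.68 ± 0.72 (SE) did not pass in edgeR (adjusted p = 0.317) and passed in DESeq2 (adjusted p = 0.000946). Outside the comparison, the 4 vehicle livers averaged 1.54 ± 0.633 CPM of Cyp2b10 (SD, n = 4), and the 4 livers of the lowest dose, 0.1 mg/kg, averaged 3.08 ± 1.81 CPM (SD, n = 4).

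Cyp3a59, a cytochrome P450 of the family that PXR controls, had a lowest, median and highest level of 45.8, 55.1 and 83.3 CPM at 6 mg/kg and of 19.3, 25.8 and 42.6 CPM at 1 mg/kg. The groups did not overlap, and its log2 difference was 1.13 ± 0.21 (SE; edgeR adjusted p = 0.201, DESeq2 adjusted p = 0.001524). Over all tested genes, 33 had every 6 mg/kg library above every 1 mg/kg library (0.273%) and 26 had the reverse (0.215%). Cyp2c37, another drug-metabolising P450, ranged from 792 to 1712 CPM at 6 mg/kg around a median of 1066, and from 562 to 895 CPM at 1 mg/kg around a median of 660. Only library 56 lay inside the 1 mg/kg range, and the log2 difference was 0.80 ± 0.21 (SE). Reads of the Cyp2c and Cyp3a families may be shared between near-identical copies, so the levels of single members are uncertain.

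The remaining members of the CAR and PXR list had smaller or more scattered differences. Of its 34 tested genes, 8 were higher at an unadjusted p under 0.05 (23.5%) and 0 were lower, and the median log2 difference was 0.25. Besides the 3 above, these were the bile salt and conjugate pump Abcc3 (0.74), Cyp3a25 (0.66), the carboxylesterase Ces2a (0.48), Cyp2c55 (2.06) and Cyp2c50 (0.53 on the log2 scale). Ces2a lay between 310 and 417 CPM at 6 mg/kg and between 244 and 323 CPM at 1 mg/kg, with library 58 the only one of 6 mg/kg inside the 1 mg/kg range. Cyp2c29, a CAR target named after its values were seen, did not reach that value and split the 6 mg/kg group: libraries 55 and 56 held 2526 and 2448 CPM, and the others held 115 to 486 CPM, within the 1 mg/kg range of 139 to 1162 CPM or below it. With 1 surrogate variable in the edgeR fit Cyp2c29 passed, as did Cyp2b10 and Cyp3a59. Without libraries 55 and 56 its log2 difference was -0.80. The list's score, the mean deviation of its members in log2 CPM from their mean over the 12 libraries, was 0.609 in library 55 and 0.542 in library 56 but -0.219 in library 52 and -0.346 in library 58, with the 1 mg/kg libraries between -0.388 and 0.144. The count of higher members was 13 without libraries 52 and 58 (beside 2.09% of all genes) and 7 without libraries 55 and 56 (beside 13% of all genes).

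Nr1i3, the gene of CAR, ranged from 227 to 800 CPM at 6 mg/kg (median 431) and from 193 to 412 CPM at 1 mg/kg (median 267), and library 52, low in Cyp2b10, had its highest level. Its log2 difference was 0.78 ± 0.29 (SE), and it was the only one of 15 nuclear receptor genes higher at an unadjusted p under 0.05 (6.67%, beside 6.58% of all genes). That count was 0 without library 52, 2 without library 53, 55, 56 or the 1 mg/kg library 41 or 42 alone and 5 without libraries 55 and 56 (beside 13% of all genes). Cyp1a2 lay between 557 and 1191 CPM at 6 mg/kg (median 1044) and between 475 and 970 CPM at 1 mg/kg (median 598). Libraries 53 to 56 were above the 1 mg/kg group and libraries 52 and 58 were within it, for a log2 difference of 0.53 ± 0.23 (SE). Nqo1, a quinone reductase of the AhR and NRF2 lists, lay on the other side, with a median of 9.16 CPM at 6 mg/kg and 13.7 CPM at 1 mg/kg and a log2 difference of -0.43. Of 8 tested AhR genes, 2 were higher (25%) and 1 was lower (12.5%) at an unadjusted p under 0.05, and of 27 NRF2 and antioxidant genes 2 were higher (7.41%) and 1 was lower (3.70%, beside 3.55% of all genes). The 2 lists share members: Nfe2l2 (log2 difference 0.62) was counted as higher in both, and Nqo1 as lower in both. The lower NRF2 count was 0 without library 54, 58 or the 1 mg/kg library 41, 48 or 50 alone, 2 without library 56 and 4 without libraries 55 and 56 (beside 12.9% of all genes). Without library 54 no AhR gene was higher at that threshold. In the antioxidant list, Mafg, a small partner protein of NRF2, lay higher without overlap, from 88.3 to 122 CPM against 57.9 to 86.7 CPM.

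Genes outside the CAR and PXR list had the smallest p of the whole comparison. Fyb2, an adaptor protein gene, had a lowest, median and highest level of 6.22, 7.39 and 8.67 CPM at 6 mg/kg and of 2.62, 3.03 and 3.75 CPM at 1 mg/kg, with a log2 difference of 1.30 ± 0.20 (SE; edgeR adjusted p = 0.070). Slc39a5, a zinc importer, ranged from 17.5 to 35.1 CPM (median 26.1) against 9.16 to 13.8 CPM (median 12.9), with a log2 difference of 1.10 ± 0.18 (SE; edgeR adjusted p = 0.108). Neither gene's groups overlapped. In vehicle, however, Slc39a5 averaged 20.3 ± 6.96 CPM (SD, n = 4), above its whole 1 mg/kg range. Fyb2 in vehicle lay between 3.04 and 5.95 CPM, in and above its 1 mg/kg range. Aox1, an aldehyde oxidase of the hepatocyte cytosol, lay between 40.8 and 94.2 CPM at 6 mg/kg and between 23.5 and 38.1 CPM at 1 mg/kg (log2 difference 1.11 ± 0.22, SE). Tnxb, an extracellular matrix protein, had a log2 difference of 1.22, with 1 of the 6 mg/kg libraries, number 53, inside the 1 mg/kg range. In vehicle Tnxb lay between 14.2 and 41.6 CPM, against 12.5 to 18.5 CPM at 1 mg/kg, and Aox1 between 26.8 and 41.8 CPM.

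The ER chaperone and unfolded protein response list lay lower at 6 mg/kg. Of 37 tested members, 18 were lower at an unadjusted p under 0.05 (48.6%, beside 3.55% of all genes) and 0 were higher. The median log2 difference was -0.52, and 1 member lay above 0. Sdf2l1, an ER-resident partner of chaperones, had a lowest, median and highest level of 7.02, 12.4 and 19.1 CPM at 6 mg/kg and of 16.6, 29.5 and 40.4 CPM at 1 mg/kg. Libraries 54 and 56 lay inside the 1 mg/kg range, and the log2 difference was -1.22 ± 0.28 (SE; edgeR adjusted p = 0.392, DESeq2 adjusted p = 0.028243). Hspa5, the master chaperone of the ER lumen, was at 127, 283 and 411 CPM against 340, 530 and 606 CPM. Libraries 52 and 58 had the lowest Hspa5, at 127 and 167 CPM, library 56 was the only one of its group inside the 1 mg/kg range, and the log2 difference was -0.91 ± 0.25 (SE).

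Manf, a secreted ER stress protein, had a median of 52.7 CPM at 6 mg/kg and 103 CPM at 1 mg/kg (log2 difference -1.01), and Creld2, likewise ER-resident, 21.7 and 40.2 CPM (-0.90). Hsp90b1, the ER form of HSP90, was the only member whose groups did not overlap, at 358 to 625 CPM against 668 to 960 CPM (log2 difference -0.58 ± 0.18, SE). Calr, the calcium-binding chaperone of glycoproteins, had a log2 difference of -0.52. Named after their values were seen, Xbp1, the factor that drives many ER chaperone genes, had a log2 difference of -0.16 and Atf4, a factor of the integrated stress response, one of 0.10, the highest of the list and the only one above 0. Neither reached an unadjusted p of 0.05. Tmed9, a cargo receptor of vesicles leaving the ER and no member of the list, had a log2 difference of -0.77, with medians of 36.8 and 60.6 CPM.

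**Figure D2:**
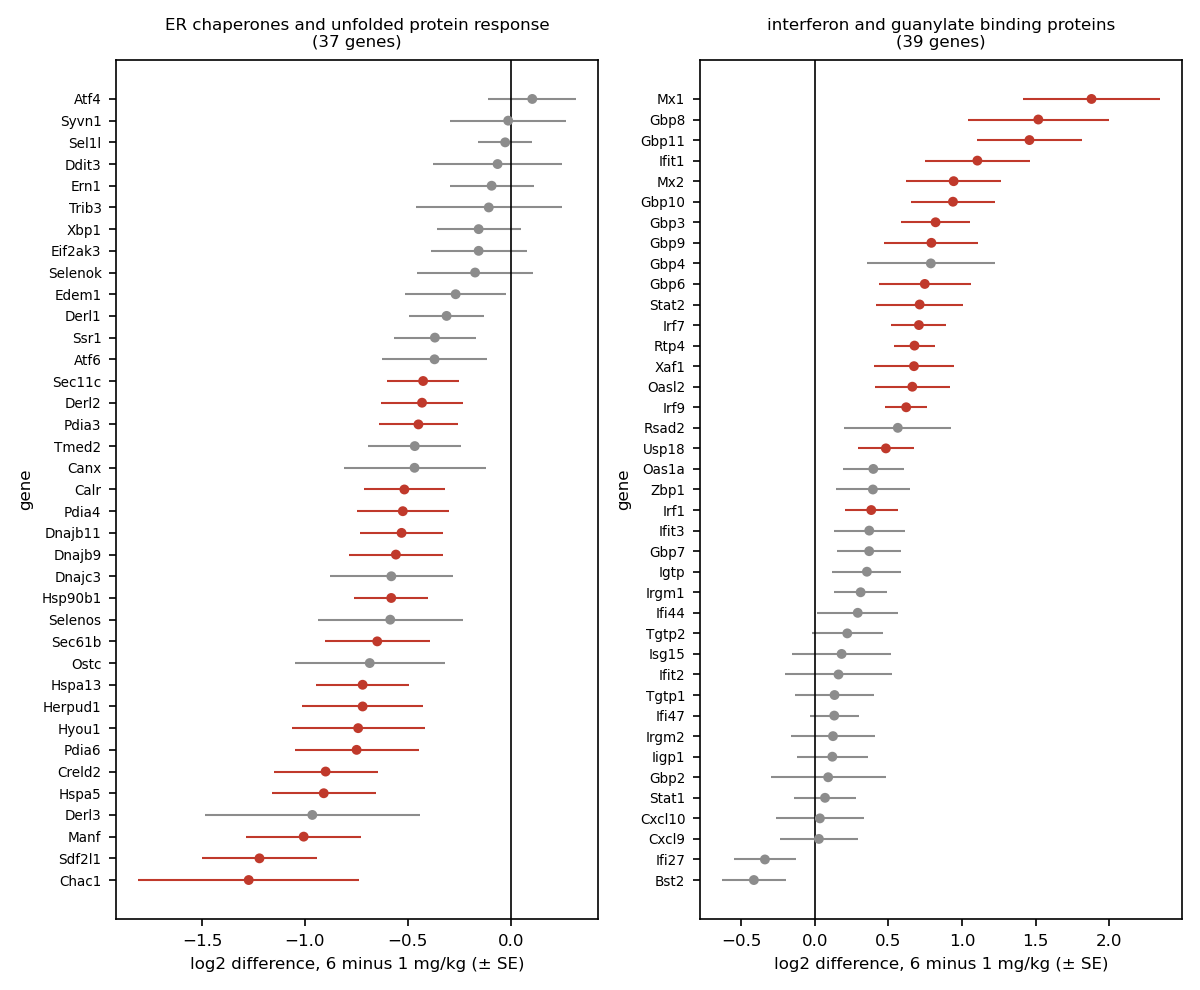
Log2 difference of every tested member of the ER list (left, 37 genes) and of the interferon list (right, 39 genes), 6 minus 1 mg/kg, with bars of 1 standard error; red marks an unadjusted p under 0.05. In the ER list 36 members lay below 0 and 18 are red, and in the interferon list 37 lay above 0 and 17 are red.

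The 6 mg/kg libraries differed in how low the ER list lay. Its score was -0.715 in library 52, -0.622 in library 58 and between -0.170 and 0.077 in the other 4, against 0.018 to 0.400 at 1 mg/kg, so that 1 library, number 56, lay inside the 1 mg/kg range. Without libraries 52 and 58 the count of lower members was 6 (beside 1.26% of all genes) and the median log2 difference was -0.28. Without libraries 55 and 56 they were 23 (beside 12.9% of all genes) and -0.74. The count was also reduced by leaving out library 58 alone (9), library 52 alone (10) or the 1 mg/kg library 42 alone (10). With library totals in place of trimmed-mean factors it was 8 (beside 0.77% of all genes), since that scaling moved the median of all genes to 0.16, and the list's median was then -0.36. The scores of vehicle (0.154 to 0.601) and 0.1 mg/kg (0.178 to 0.620) lay in or above the range of 1 mg/kg. Hepatocyte markers lay lower beside the ER list: all 6 had log2 differences below 0, with a median of -0.39, and Alb, the main plasma protein, had -0.45. Their summed level was 77946.5 to 131314 CPM at 6 mg/kg, lowest in library 52, and 98278 to 169247 CPM at 1 mg/kg (log2 difference -0.42, two-sided exact permutation p = 0.0216, adjusted over 13 lists 0.141). The part of these markers in the ER list's level was not tested.

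**Figure D3:**
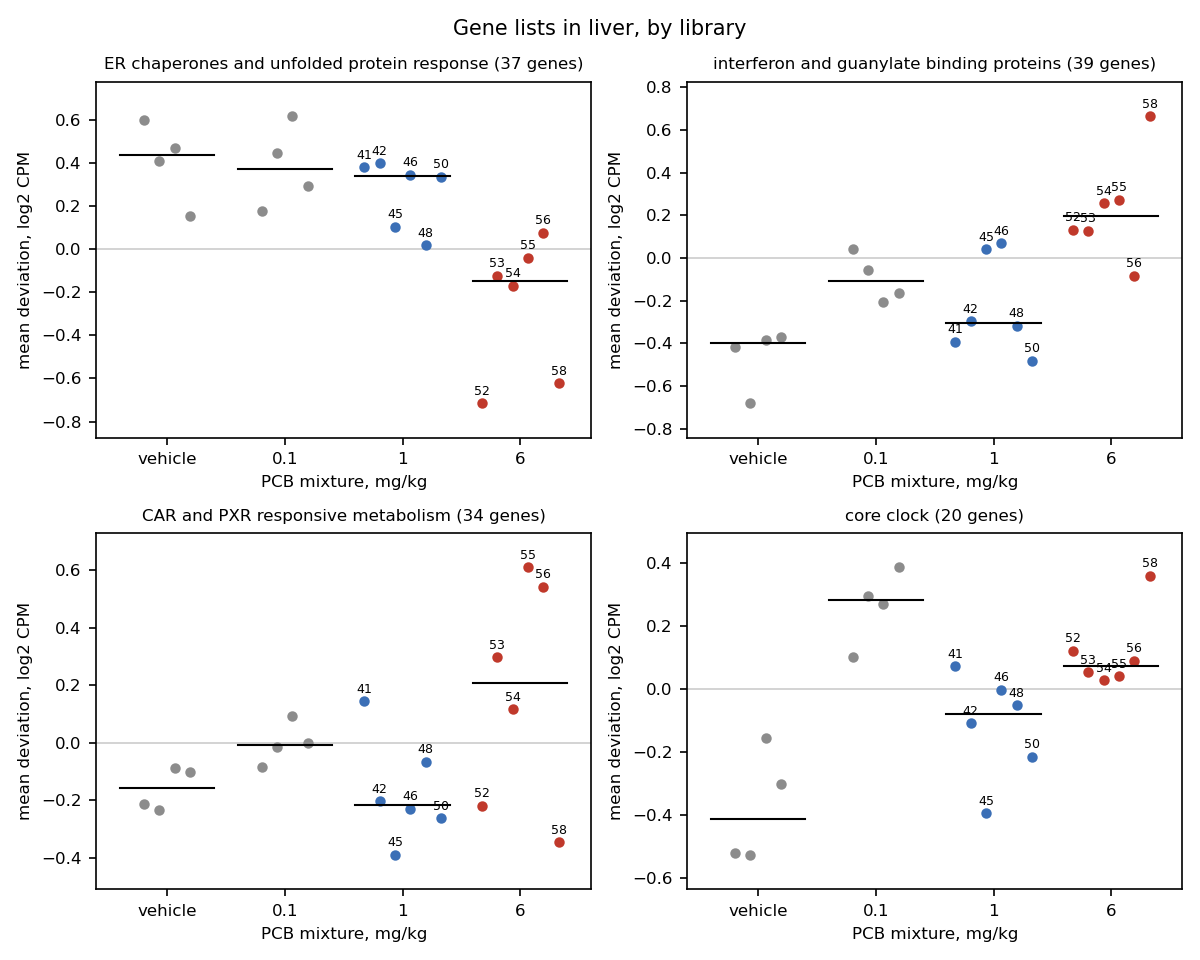
Score of 4 gene lists in each liver library (mean deviation of the members in log2 CPM from their mean over the 12 libraries of the comparison) against the dose of the PCB mixture in mg/kg; bars are group medians, colours mark dose as in the plot of gene levels, and numbers name the animals of the 2 groups compared. In the 6 mg/kg group, libraries 52 and 58 were lowest for the ER list (-0.715 and -0.622) and for the CAR and PXR list (-0.219 and -0.346), where libraries 55 and 56 were highest (0.609 and 0.542).

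Interferon-stimulated genes and guanylate binding proteins, which cells make in response to interferons as a defence against viruses and intracellular microbes, lay higher at 6 mg/kg. Of 39 tested members, 17 were higher at an unadjusted p under 0.05 (43.6%, beside 6.58% of all genes) and 0 were lower, with a median log2 difference of 0.39. Rtp4, an interferon-induced helper protein of receptor transport, had a lowest, median and highest level of 25.5, 30.8 and 34.6 CPM at 6 mg/kg and of 16.6, 18.3 and 22.8 CPM at 1 mg/kg. Its groups did not overlap, and the log2 difference was 0.68 ± 0.14 (SE; edgeR adjusted p = 0.322). The transcription factors Irf9, at 38.3 to 59.0 CPM against 27.7 to 37.0 CPM, and Irf7, at 88.8 to 163 CPM against 52.6 to 86.3 CPM, did not overlap either. Their log2 differences were 0.62 ± 0.14 and 0.71 ± 0.19 (SE).

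Mx1, a dynamin-like antiviral protein with only 4 to 68 counts a library, had medians of 4.53 and 0.948 CPM and a log2 difference of 1.88 ± 0.47 (SE). Gbp11 had a log2 difference of 1.46, with libraries 52 and 58 highest at 27.7 and 31.6 CPM and library 56 inside the 1 mg/kg range at 5.91 CPM. Gbp3 (0.82) and Ifit1 (1.10 on the log2 scale) followed, and guanylate binding proteins share sequence, so their single levels are uncertain. The membrane tether Bst2 had a log2 difference of -0.41; it was named after its values were seen and did not reach an unadjusted p of 0.05. The list's score was highest in library 58 (0.665) and lowest in library 56 (-0.083), and the 1 mg/kg libraries 45 and 46 (0.042 and 0.069) were the only ones of that group above library 56. Without libraries 52 and 58 the count of higher members was 8 (beside 2.09% of all genes), with a median of 0.33, and without library 58 alone it was 11 (beside 3.62%). The log2 differences of the summed markers of Kupffer cells, endothelial cells and T or NK cells were 0.08, -0.08 and -0.24, each with an adjusted exact permutation p of 0.983. Neutrophil markers summed to 1.36 to 11.96 CPM at 6 mg/kg and to 2.86 to 3.95 CPM at 1 mg/kg, a log2 difference of 0.52 (adjusted exact permutation p = 0.983), and of 0.84 without library 56 (unadjusted exact permutation p = 0.0216). Libraries 58 and 56, highest and lowest in the interferon score, were also highest and lowest in these markers and in Csf3r, a receptor of neutrophils and the only one of the 4 markers that passed the filter on low counts (10.6 and 0.775 CPM, against 1.42 to 2.06 CPM at 1 mg/kg). Its log2 difference was 1.24, with an edgeR adjusted p of 0.465. The part of these cell types in the list's level was not tested.

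Promoters from RefSeq (build GRCm38.p6, 250 bases before to 50 after a start site) were searched on both strands for short motifs. The interferon element core GAAANNGAA stood in 18 of the 25 interferon list genes with a listed promoter (72.0%) and in 8.61% of the 9665 tested genes with one. The element TGACGTG of the unfolded protein response stood in 1 of 29 ER list genes (3.45%), Hspa5, and in 3.22% of all. No other element of that response was searched for, so the count covers TGACGTG only. The E-box CACGTG stood in 5 of 16 core clock genes (31.2%), in 2 of 21 clock output genes (9.52%) and in 11.9% of all. Other motifs stood in the core clock genes too, TGACNNNGC, the antioxidant element core, in 5 of 16 (16.8% of all) and TNGCGTG, the AhR element core, in 4 of 16 (9.33% of all). No match stood in the listed promoters of Irf9, Irf7, Oasl2 and Xaf1 for the interferon element, of Sdf2l1 for the unfolded protein element or of Per3 for the E-box, and of the 2 listed promoters of Gbp3 only the one shown holds a match. A match is only a run of letters, and overlapping matches count once per gene. The shares describe the lists as chosen and do not use the difference between the doses. The promoters of 2 interferon list genes with matches, of Hspa5 and of the clock gene Tef are shown as examples of a match, in the direction of transcription, with the matched motif in capitals. Ifit1 lies at chr19:34640639-34640938 (plus strand), Gbp3 at chr3:142559794-142560093 (plus strand), Hspa5 at chr2:34771840-34772139 (plus strand) and Tef at chr15:81802423-81802722 (plus strand).
Ifit1: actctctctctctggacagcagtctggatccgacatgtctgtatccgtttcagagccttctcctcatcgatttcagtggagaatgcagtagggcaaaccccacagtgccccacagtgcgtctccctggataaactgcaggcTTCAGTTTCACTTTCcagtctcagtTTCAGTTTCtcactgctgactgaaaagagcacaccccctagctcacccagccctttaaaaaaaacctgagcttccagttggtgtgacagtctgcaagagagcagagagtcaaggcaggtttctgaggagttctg
Gbp3: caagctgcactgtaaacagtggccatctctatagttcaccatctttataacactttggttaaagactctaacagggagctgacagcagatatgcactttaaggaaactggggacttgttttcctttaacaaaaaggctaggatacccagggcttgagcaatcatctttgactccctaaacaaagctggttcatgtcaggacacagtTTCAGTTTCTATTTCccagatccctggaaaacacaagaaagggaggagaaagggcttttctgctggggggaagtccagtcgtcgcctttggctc
Hspa5: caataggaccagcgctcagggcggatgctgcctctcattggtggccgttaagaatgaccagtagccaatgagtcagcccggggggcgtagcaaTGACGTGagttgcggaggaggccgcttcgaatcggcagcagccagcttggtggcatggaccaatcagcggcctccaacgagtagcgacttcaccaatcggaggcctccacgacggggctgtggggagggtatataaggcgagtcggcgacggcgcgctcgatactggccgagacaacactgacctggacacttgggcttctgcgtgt
Tef: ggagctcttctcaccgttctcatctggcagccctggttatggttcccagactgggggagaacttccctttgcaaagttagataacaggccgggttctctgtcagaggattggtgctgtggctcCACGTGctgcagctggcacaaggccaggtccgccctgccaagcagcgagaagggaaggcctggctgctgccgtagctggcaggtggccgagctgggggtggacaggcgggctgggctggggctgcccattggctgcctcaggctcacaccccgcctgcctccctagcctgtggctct

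Genes of the circadian clock were higher in part. Of 20 core clock genes, 4 were higher at an unadjusted p under 0.05 (20%) and 0 were lower. Per3, a period gene of the clock's repressor arm, had a lowest, median and highest level of 28.2, 53.7 and 70.5 CPM at 6 mg/kg and of 16.3, 22.7 and 38.0 CPM at 1 mg/kg, and library 55 was the only one of 6 mg/kg inside the 1 mg/kg range. Its log2 difference was 1.08 ± 0.24 (SE; edgeR adjusted p = 0.392, DESeq2 adjusted p = 0.023667). Per2, its paralog, was between 68.4 and 117 CPM in libraries 52, 53, 54 and 58 but at 15.7 and 31.3 CPM in libraries 55 and 56, against 19.1 to 45.8 CPM at 1 mg/kg. Tef, a clock output factor, had a log2 difference of 0.61 with the same 2 libraries, at 153 and 154 CPM, inside the 1 mg/kg range. Dbp, an output gene of the hepatic clock named after its values were seen, had medians of 308 and 287 CPM. An index of the hour, log2 Dbp minus log2 Arntl, differed by 0.16 between the groups (two-sided exact permutation p = 0.773). Without library 58 the count of higher core clock genes was 2, and with library totals in place of trimmed-mean factors it was 8 (beside 14.3% of all genes). Of 25 clock output genes, 2 were higher (8%, beside 6.58% of all genes) and 0 were lower, with a median log2 difference of 0.07. The higher count of that list was 1 to 6 with single libraries left out. In vehicle, Per3 averaged 12.3 ± 8.76 CPM (SD, n = 4), below 1 mg/kg, and at 0.1 mg/kg 39.5 ± 8.50 CPM (SD, n = 4), above it. The hour index of the vehicle livers, 2.05 to 5.45, lay below that of every library at 1 mg/kg (5.77 to 8.61) and 6 mg/kg (6.58 to 8.48), and its part in levels compared with vehicle was not tested.

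Metabolic and secretory genes gave smaller counts. Of 34 targets of PPAR alpha, the fatty acid receptor of the liver, 4 were higher at an unadjusted p under 0.05 (11.8%) and 0 were lower: the pantetheinase Vnn1 (log2 difference 0.87), the fatty acid hydroxylases Cyp4a31 (0.99) and Cyp4a10 (0.95) and the peroxisomal thiolase Acaa1b (0.65). Acaa1b lay between 1970 and 2918 CPM at 6 mg/kg, but the 1 mg/kg library 42 reached 2853 CPM. The count was 1 without libraries 52 and 58, and 2 without library 52, 55, 58 or the 1 mg/kg library 50 alone. Of 27 genes of bile acid synthesis and transport, 3 were higher at an unadjusted p under 0.05 and 0 were lower, 15 lay below 0 and the median log2 difference was -0.09. Without libraries 55 and 56, 6 were lower, beside 12.9% of all genes. Besides Abcc3, the higher ones were 2 exporters: Abcc4, an efflux pump, had a log2 difference of 1.08 (3.61 to 13.1 CPM against 1.74 to 4.81 CPM), and Abcg5, a part of the sterol exporter, 0.58. The lowest value was that of the uptake carrier Slco1a1, named after its values were seen, at -1.75 without reaching an unadjusted p of 0.05. Cholesterol synthesis, glucose production, the thyroid hormone axis, the glucocorticoid response, periportal genes and cytosolic ribosomal proteins had 0 members at an unadjusted p under 0.05 in either direction, of 26, 26, 16, 16, 18 and 47 tested. Most members still lay below 0 for glucose production (21 of 26), periportal genes (16 of 18), the glucocorticoid response (12 of 16) and ribosomal proteins (37 of 47). The counts were not stable: ribosomal proteins had 6 lower members without the 1 mg/kg library 41, with a surrogate variable or without libraries 55 and 56, and 5 without library 56. Of all genes, 4.29%, 6.44%, 12.9% and 5.39% were lower in these fits, in that order. Without libraries 55 and 56, 11 cholesterol, 7 glucose and 6 periportal genes were lower and 2 glucose genes were higher, and glucose production had 3 lower without library 56 alone. Cholesterol synthesis had 3 higher members with a surrogate variable or with library totals. The glucocorticoid response had 2 lower members without the 1 mg/kg library 41, and 2 higher members without libraries 52 and 58 or with library totals. Pericentral genes leaned lower like periportal ones, with 12 of 19 below 0 and medians of -0.26 and -0.31. Of the pericentral genes, 2 were lower (10.5%) and 1 was higher (5.26%) at an unadjusted p under 0.05. Their lower count was 0 with library totals and 7 with quality weights.

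Acute phase and plasma proteins leaned lower. Of 32 genes, 4 were lower at an unadjusted p under 0.05 (12.5%) and 1 was higher. Apcs, a pentraxin of plasma, lay between 90.8 and 155 CPM against 137 to 203 CPM (log2 difference -0.55), and the fibrinogen chain Fgb between 1505 and 3340 CPM against 3263 to 4025 CPM (-0.66). For each of the 2 genes library 55 was the only one of 6 mg/kg inside the 1 mg/kg range. The count of lower genes was 2 without library 52, 54, 58 or the 1 mg/kg library 42 alone, without libraries 52 and 58 or with library totals. It was 6 without the 1 mg/kg library 46, with DESeq2 or with all 20 liver libraries, 7 with quality weights, 8 with a surrogate variable and 9 without libraries 55 and 56 (beside 12.9% of all genes). Socs3, a feedback inhibitor of cytokine signalling, lay on the other side at 9.48 to 28.4 CPM against 4.80 to 9.84 CPM (log2 difference 1.24 ± 0.29, SE). Outside the lists, Mug2, a protease inhibitor of plasma, did not overlap (209 to 371 CPM against 384 to 657 CPM, log2 difference -0.77), though vehicle averaged 349 ± 64.3 CPM (SD, n = 4), inside the 6 mg/kg range. Mup22 (-1.01) is one of many near-identical major urinary protein genes, so its level is uncertain. Smco4 had a log2 difference of -0.85.

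Respiratory chain genes of the nucleus also leaned lower: 8 of 61 were lower at an unadjusted p under 0.05 (13.1%), with a median log2 difference of -0.24, among them Uqcrh, a subunit of complex III (-0.49), and, in the same list, Immp1l, a subunit of the inner membrane peptidase (-0.52). That count was 0 without libraries 52 and 58 (beside 1.26% of all genes) and 27 with a surrogate variable (beside 6.44%). It was 0 with library totals (median -0.09) and 3 with the GC and length offset (median -0.13), and it ranged from 2 to 15 with single libraries left out (lowest without the 1 mg/kg library 48, highest without library 53 or the 1 mg/kg library 41). Nuclear-retained noncoding RNAs lay the other way, with 3 of 9 higher, among them Malat1 (log2 difference 0.77) and Mir22hg (0.97), and SR and splicing genes had 3 of 26 higher, among them Srsf5 (0.49). Without libraries 52 and 58 these counts were 1 and 0. The splicing count was also 0 without library 52 or the 1 mg/kg library 45 or 50 alone, 1 without library 58, 6 without library 55, 56 or the 1 mg/kg library 48 alone and 13 without libraries 55 and 56, where the list's median was 0.43 and 13% of all genes were higher. The summed level of these noncoding RNAs differed by 0.61 log2 (two-sided exact permutation p = 0.123), and by 0.87 without the 1 mg/kg library 48 (exact permutation p = 0.0108). The part of nuclear RNA in the other results was not tested.

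**Figure D4:**
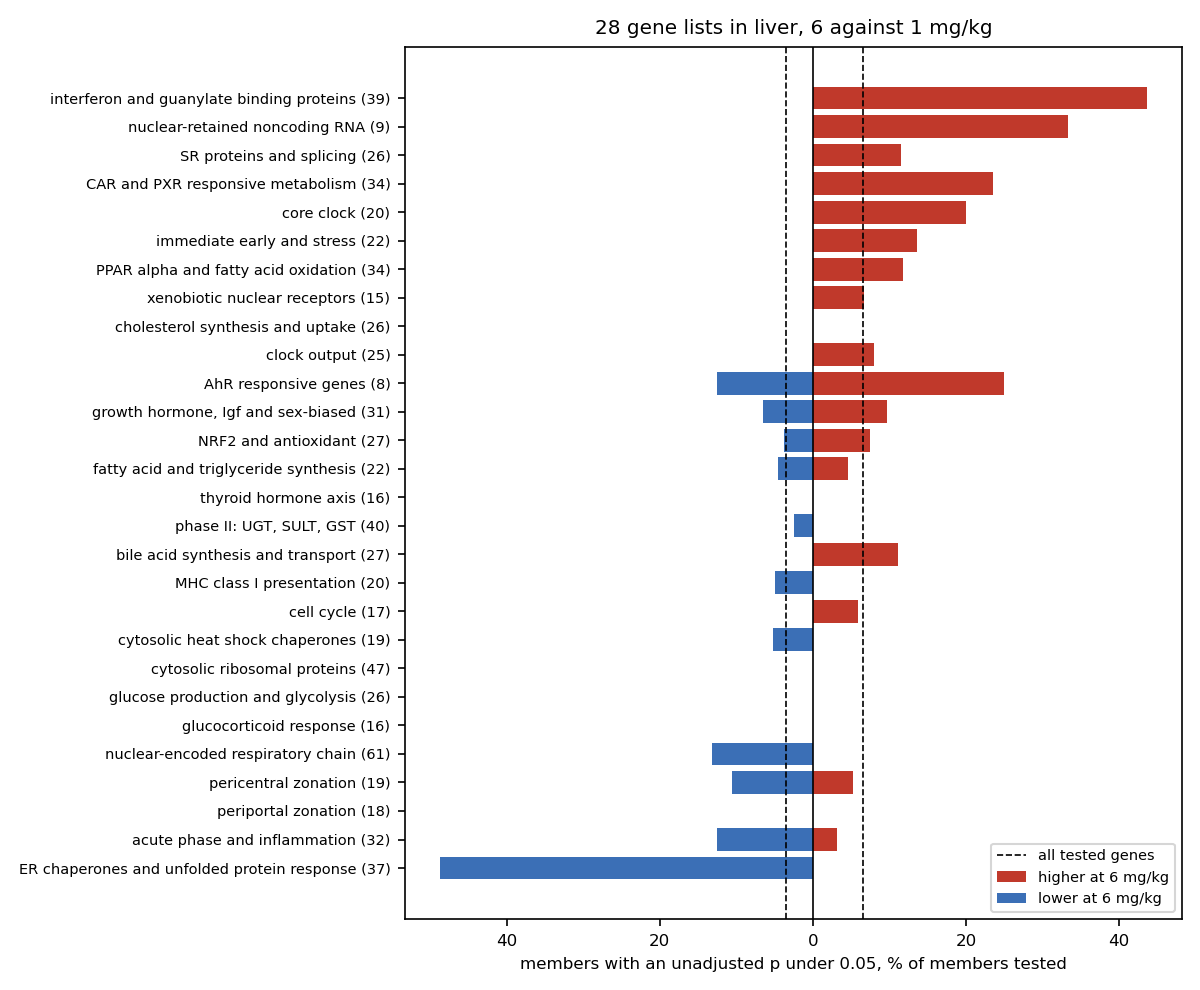
Share of the tested members of 28 gene lists with an unadjusted p under 0.05, in percent, higher at 6 mg/kg to the right and lower to the left, ordered by the list's median log2 difference; numbers in parentheses are members tested and dashed lines are the shares of all genes (6.58% higher, 3.55% lower). The interferon list (43.6% higher) and the ER list (48.6% lower) lie farthest from the dashed lines.

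The tissue of the libraries was checked against marker genes. All 6 hepatocyte markers were high in each library, with a median sum of 96254 CPM at 6 mg/kg and 132834 CPM at 1 mg/kg. In such bulk samples fewer cells of a type and less RNA per cell cannot be told apart. Of the pancreas markers, Cela1 alone was in the table. It lay lower without overlap, from 5.57 to 13.0 CPM against 16.2 to 33.4 CPM, with a log2 difference of -1.27 ± 0.23 (SE; edgeR adjusted p = 0.196, DESeq2 adjusted p = 0.000946). It also passed with a surrogate variable (adjusted p = 0.0182) and with limma voom and quality weights (adjusted p = 0.0431). As a marker list of 1 gene it had a two-sided exact permutation p of 0.00216, the smallest that 924 splits can give, and 0.0281 adjusted over the 13 lists, the only one of them under 0.05. Outside the comparison, Cela1 lay between 12.6 and 17.8 CPM in vehicle and between 10.7 and 23.5 CPM at 0.1 mg/kg. Each of these reached into the range of 6 mg/kg and that of 1 mg/kg. Erythroid markers summed to 2594 CPM in the 1 mg/kg library 45 and to 45.8 to 339 CPM in the other 11, and the globin gene Hbb-bt (log2 difference -2.19) was at 0.05 without that library. The endothelial genes Stab2 (0.58) and Pecam1 (-0.52) lay on opposite sides. Neuron markers summed to 81.5 and 56.9 CPM in the 1 mg/kg libraries 45 and 50. They summed to 67.9 and 46.4 CPM in libraries 52 and 54, and to 7.31 to 22.3 CPM in the rest. Glia markers were highest in the same libraries (16.9 to 47.8 CPM, against 2.29 to 10.1 CPM). Neuron markers differed by -0.06 log2 between the groups (two-sided exact permutation p = 0.929), and the source of these transcripts was not tested.

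Counts per library ranged from 7381179 to 10114871 at 6 mg/kg and from 8298459 to 10203247 at 1 mg/kg (two-sided exact permutation p = 0.186). Trimmed-mean factors were higher at 6 mg/kg (median 1.04 against 0.940, two-sided exact permutation p = 0.00649). The first principal component of the 12 libraries held 39.97% of the variance and ran within the dose groups: libraries 52 and 58 stood at 56.2 and 53.1 and libraries 55 and 56 at -39.3 and -40.5, while the 1 mg/kg libraries 41 and 42 stood at -52.7 and -41.7. The comparison depended on which of these were present. Without libraries 52 and 58, 0 genes passed the edgeR test and 410 stood at an unadjusted p under 0.05. Without libraries 55 and 56, 662 passed (438 higher, 224 lower). Both pairs were picked after the data were seen, by their place on that component, so neither count is a result about dose.

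**Figure D5:**
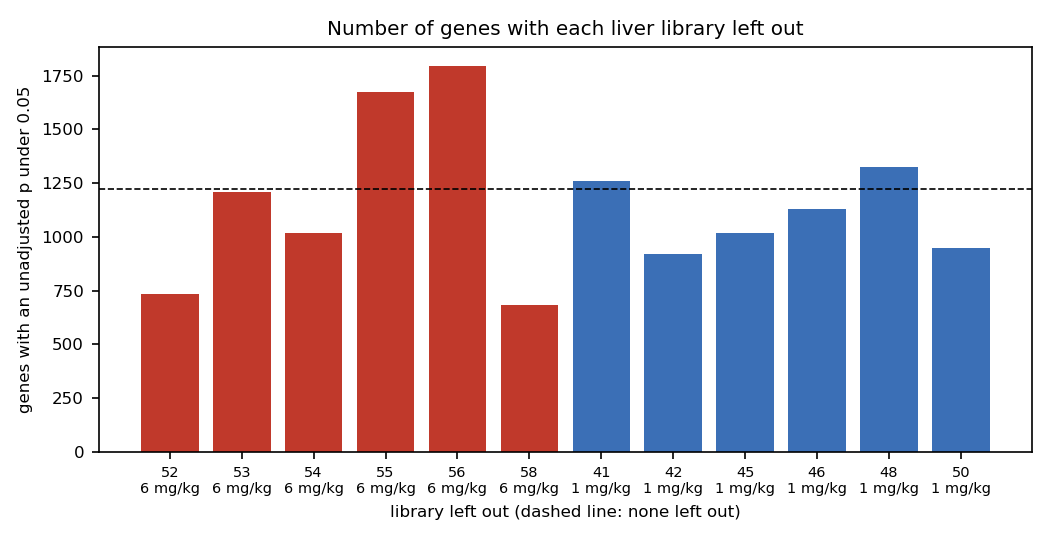
Number of genes with an unadjusted p under 0.05 in the edgeR test when each library of the comparison is left out (x axis, animal number and dose; red for 6 mg/kg, blue for 1 mg/kg); the dashed line is the count with all 12 libraries, 1223. The count was 682 without library 58 and 733 without library 52, and 1675 and 1794 without libraries 55 and 56.

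Whether the dose difference in liver differed from that in brain was tested as an interaction over the same doses. For prefrontal cortex 0 of 14214 genes passed the edgeR test (1413 at an unadjusted p under 0.05, lowest adjusted p 0.245), and for striatum 0 of 14350 (2124, lowest adjusted p 0.107). DESeq2 passed 29 and 133. The ER list, with a median of -0.52 in liver, had medians of 0.02 in prefrontal cortex and -0.03 in striatum. Hspa5 differed by -0.93 log2 from prefrontal cortex and by -0.94 from striatum, with edgeR adjusted p of 0.304 and 0.189. The interferon list had medians of 0.25 in prefrontal cortex and -0.10 in striatum, beside 0.39 in liver.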

How the data were processed

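RNA was sequenced from liver and 2 brain regions, and the authors deposited 1 table of whole-number counts per Entrez gene for each tissue, with no normalization; per the submitters' processing notes FastQC, HISAT2 and the mm10 build were used, and the counting tool and its use of strand are not given in the sources used here. The liver table held 16206 genes with at least 10 counts in total over 20 libraries, and symbols came from RefSeq (99.95% matched). Columns were matched to samples by title.

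The 12 libraries of 6 and 1 mg/kg were fitted with edgeR 4.0.16 (R 4.3.3): filterByExpr on dose, trimmed-mean (TMM) scaling, robust quasi-likelihood test, Benjamini-Hochberg adjustment over 12072 genes, threshold 0.05. Standard errors are the absolute log2 difference over the square root of F. Levels are TMM-scaled CPM over the 20 liver libraries, with a prior count of 2 for log2 CPM. Summed markers were tested on log2 (CPM + 0.5) by exact permutation over 924 splits, with a smallest possible p of 0.00216. Alternatives used DESeq2 1.42.0, sva 3.50.0, limma 3.58.1 and mgcv 1.9.3. GC content and length, from GENCODE vM21, were known for 97.0% of tested genes. No pair of libraries of a group agreed within sampling noise (smallest chi-square per degree of freedom 12.9 over genes with at least 20 counts), so each counted as 1 replicate. Nothing in the labels ties dose groups to batches or says that libraries are separate cages, and p-values measure the spread between these samples.

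The members and the 28 pathway and 13 marker lists were chosen with earlier results of these data known. Named genes are the 6 with the smallest p in each direction, since none passed, the 3 with the smallest p of a list, and further genes said to be chosen after their values were seen or counted as members of a list. The animal number of a title recurs across tissues and was used only as a block in interaction tests.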

Additional observations from a re-analysis of the deposited data

Results flagged for a closer look

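In 10 of 178 sets of 6 libraries checked, 1 library stood far from the rest of its group by Dixon's criterion, and chance alone flags about 1 set in 20. In the 6 mg/kg group, library 52 had the highest summed cholangiocyte markers (111 CPM) and stood apart with 2.17 CPM of Hbb-bt and 134 CPM of Bst2, library 58 had the highest Mafg (122 CPM) and Stab2 (82.1 CPM), and library 55 was the only one with adipocyte markers (0.327 CPM). In the 1 mg/kg group, library 45 had the lowest summed stellate markers (131 CPM) and 0 CPM of Cyp2c55, and library 50 had the highest B cell markers (12.4 CPM) and adipocyte markers (1.62 CPM).

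For 4 of the genes checked, every 6 mg/kg library lay on one side of the 1 mg/kg mean in liver and on the other side in a brain region. The share over all tested genes is not given. Hsp90b1 differed between liver and prefrontal cortex by -0.71 log2 (edgeR interaction test, adjusted p = 0.288) and Pecam1 by -0.79 (adjusted p = 0.288). Tmed9 differed between liver and striatum by -1.04 (adjusted p = 0.171), and Nampt by 0.86 (adjusted p = 0.171). None of these interactions passed.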

How the results depend on the processing

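The count of genes passing for 6 against 1 mg/kg was 0 in the edgeR test and stayed 0 with all 20 liver libraries, median-ratio size factors, other filters on low counts, the clock index as a covariate and without libraries 52 and 58. It was 27 with DESeq2, 6 with 1 surrogate variable, 3 with limma voom and quality weights, 2 with a GC and length offset, 2 with library totals and 662 without libraries 55 and 56, and 0 to 1 with each library left out (Slc39a5 without library 55). The quality weights, library totals and both pairs of libraries were added after the data were seen. Of the genes at an unadjusted p under 0.05, 64.9% were higher at 6 mg/kg, against 47.0% with the surrogate variable, 54.8% with the GC and length offset, 50.2% without libraries 55 and 56 and 94.9% with library totals, which moved the median of all genes to 0.16. Fyb2 and Slc39a5 passed in 5 of the fits named above with all 12 libraries, namely DESeq2, the surrogate variable, the offset, the quality weights and library totals.

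Over the named genes followed through the refits, which do not include Slco1a1, 1681 of the refitted values kept their direction and side of the threshold, 66 passed where the edgeR test did not, and 5 changed sign. Those were Cyp2c29 (-0.80 without libraries 55 and 56), Hbb-bt (0.051 without the 1 mg/kg library 45), Xbp1 (0.0088 with library totals) and Atf4 (-0.085 without libraries 52 and 58, -0.037 with quality weights). With each library left out, Hbb-bt ranged from -2.43 to 0.051.

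With each library left out in turn, the difference in total counts ranged from -1047600 to -482242 (exact p = 0.028 without library 56) and the clock index difference from -0.17 to 0.40, with -0.01 and -0.02 without library 54 and the 1 mg/kg library 45. Log2 differences of summed markers ranged from -0.50 to -0.34 for hepatocytes (exact p = 0.052 without the 1 mg/kg library 50), 0.29 to 0.84 for neutrophils and 0.38 to 0.87 for nuclear RNA. They changed sign for cholangiocytes (-0.088 to 0.24), stellate cells (-0.11 to 0.17, with -0.03 and -0.09), Kupffer cells (-0.0061 to 0.22, with -0.0054), B cells (-0.34 to 0.092), erythroid cells (-0.62 to 0.55), neurons (-0.41 to 0.32, with 0.16, 0.12, 0.14 and 0.22), glia (-0.38 to 0.46, with 0.13, 0.20, 0.22 and 0.24) and adipocytes (-0.45 to 0.0023).

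For the interaction with prefrontal cortex the animal number as a replicate block left 0 genes passing (1012 at an unadjusted p under 0.05), DESeq2 gave 29, and leaving out each animal gave 0. For striatum the replicate block left 0 (1692), DESeq2 gave 133 and leaving out each animal gave 0 to 2 (2 without animal 41 or animal 53). The correlation of same-numbered libraries averaged 0.0089 for prefrontal cortex, with 1 of 12 over 0.1, and 0.0078 for striatum, with 2 of 12. These values did not meet the criterion for treating the numbers as pairs, and whether a number marks the same mouse in each tissue is not given in the sources used here. Within liver the dose groups held different animals and no pairing was possible. Genes with few counts, such as Mx1 with 4 to 68 a library, limit the precision of their levels.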

Other observations

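Stress, growth hormone and transport genes outside the groups above gave scattered differences, none of which passed the edgeR test. Ier3, an immediate early gene, lay between 2.07 and 4.36 CPM at 6 mg/kg and between 0.605 and 1.91 CPM at 1 mg/kg without overlap (log2 difference 1.19), and 3 of 22 genes of its list were higher at an unadjusted p under 0.05. That count was 2 without library 53, 54, 55, 56 or the 1 mg/kg library 46 or 48 alone, 5 without library 52 and 7 with library totals. Gadd45a, a growth arrest gene, had a log2 difference of 0.80, with the 1 mg/kg libraries 41 and 42 inside the 6 mg/kg range at 30.3 and 19.2 CPM. Among growth hormone and sex-biased genes, 3 of 31 were higher and 2 lower, and the higher count was 2 to 4 with single libraries left out (2 without library 55, 58 or the 1 mg/kg library 41, 42, 46, 48 or 50). Cish, a feedback inhibitor of growth hormone signalling, reached 65.0 CPM in library 58 and 43.6 CPM in library 52 against at most 17.9 CPM at 1 mg/kg (log2 difference 1.08), Hao2, a peroxisomal oxidase, had a log2 difference of 0.53 and Cyp2d9, a P450 that is higher in male liver, one of -0.73.

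Mlxipl, the carbohydrate response factor ChREBP, was between 707 and 854 CPM in libraries 52, 53, 54 and 58 and at 295 and 359 CPM in libraries 55 and 56, against 162 to 640 CPM at 1 mg/kg. Of 40 conjugating enzymes of phase II, 0 were higher and 1 was lower at an unadjusted p under 0.05 (2.50%, beside 3.55% of all genes), with a median log2 difference of -0.08, and 8 were lower without libraries 55 and 56 (beside 12.9% of all genes). The lower one was Ugt2a3, a glucuronosyltransferase (88.0 to 161 CPM against 154 to 225 CPM, log2 difference -0.54).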
